A study of Homo sapiens with 2 samples.

Results

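The genes of the microRNA pathway were examined in a genome-wide map of KDM1B, a flavin-dependent demethylase of histone lysines also known as LSD2. The 10 genes encode the Argonaute proteins AGO1, AGO2, AGO3 and AGO4, the nuclear processing enzyme DROSHA and its partner DGCR8, the export receptor XPO5, the cytoplasmic nuclease DICER1 and its partner TARBP2, and the silencing effector TNRC6A. They were chosen by function out of 19974 protein-coding genes placed by RefSeq on chromosomes 1 to 22 and X, at a time when the wide peak over AGO2 was already known from the same list. Every value below therefore describes the list, and none is a test. Both libraries came from the human breast cancer cell line MDA-MB-231, which lacks hormone receptors and stably carried KDM1B with a 3XFLAG tag in the retroviral vector pOZ. One was precipitated with an anti-FLAG antibody and the other was input chromatin of the same tagged cells, so the antibody's background in cells without the tag was not analysed here. With 1 library in each group there was no replicate error for any value, and the deposited list gives each peak's position and log2 ratio of ChIP over input, the authors' value, without read counts or significance, so the depth behind each ratio is unknown.

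A microRNA is cut from its primary transcript in the nucleus by the Microprocessor, in which the RNase III enzyme DROSHA works with the RNA-binding protein DGCR8. Exportin 5, the product of XPO5, carries the resulting hairpin to the cytoplasm, where DICER1, helped by TARBP2, trims it to a short duplex. An Argonaute protein keeps a single strand of the duplex as its guide, and the GW182 protein TNRC6A links the loaded Argonaute to the enzymes that shorten and decap the target mRNA. AGO2 is the family member best known for cutting its target itself.

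KDM1B peaks were found at all 10 genes, but unevenly: AGO2, XPO5 and DGCR8 lay mostly under peaks, while AGO4 and TARBP2 were nearly free of them. Counting peaks whose midpoint fell inside the gene span or at most 5 kb away, 10 of 10 genes had at least 1, against 67.5% of all protein-coding genes. Together the genes held 149 distinct peaks, 2 of which were near both AGO1 and AGO3. Just beyond the 5 kb limit were a peak of XPO5 (5095 bp away, 3.52), of DGCR8 (5204.5 bp, 3.25), of DROSHA (5232.5 bp, 2.68) and of AGO2 (5529.5 bp, 2.96). Peaks covered 50% or more of the gene span in 3 of 10, against 7.28% of all protein-coding genes. The share covered had a median of 12.1% over the 10 genes and 1.52% over all protein-coding genes. Since the share covered varied with gene length, each gene was set against the 500 protein-coding genes nearest to it in length. In 8 of 10 the share covered was above the median of those genes of like length, which 46.4% of all protein-coding genes also reach. In 3 of 10, AGO2, XPO5 and DROSHA, at least 95% of the genes of like length had a smaller share, as in 5.15% of all protein-coding genes. A midpoint within 1 kb of either gene end was present in 7 of 10, against 41.9%. AGO4, DROSHA and TNRC6A had none there, and AGO1 had only the peak it shared with AGO3. This count was 2 of 10 within 500 bp of an end, AGO1 and AGO3, both through the peak they share. With only the peaks at or above the list's median ratio it was 3 of 10. The shares of all protein-coding genes at these settings were not computed.

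**Figure D1:**
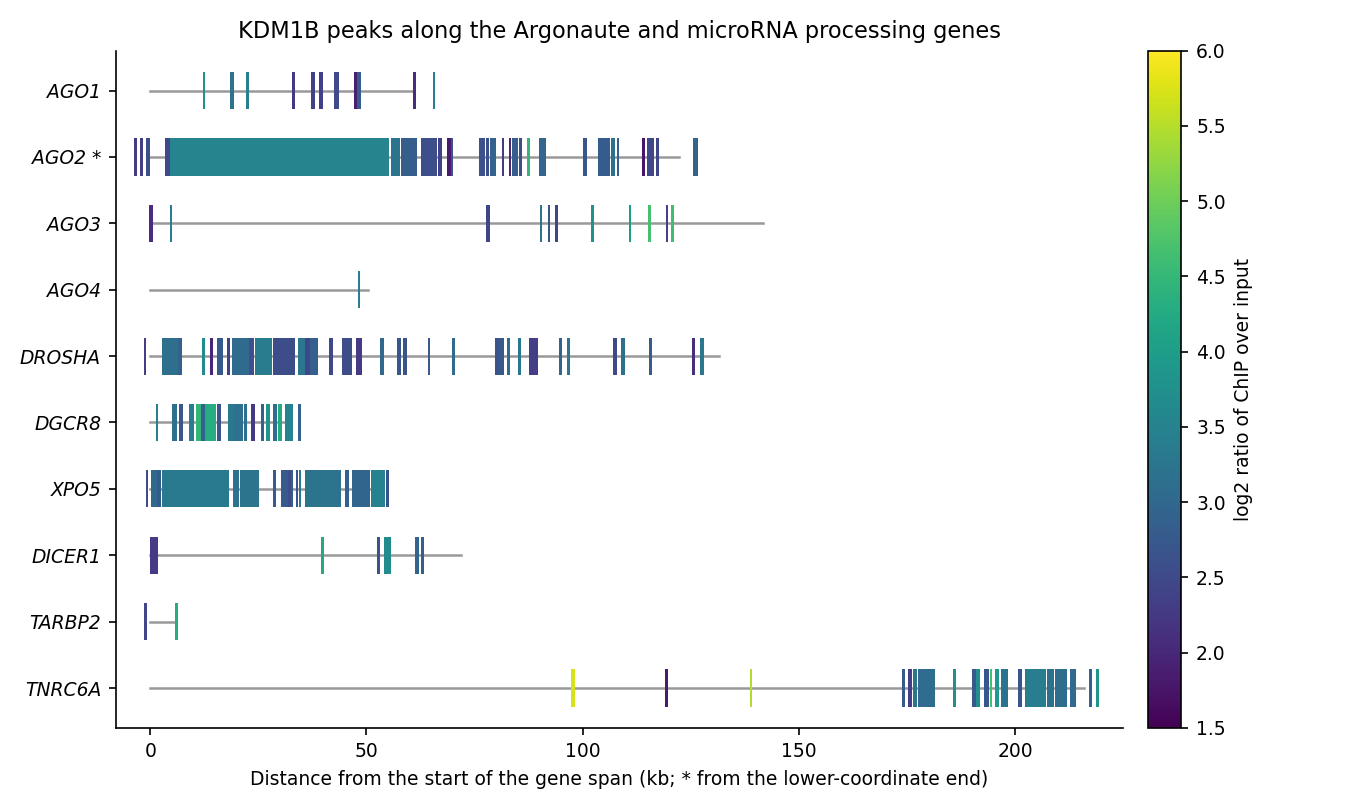
Each line is 1 gene drawn in kb from the start of its span (AGO2 from its lower-coordinate end), and each box is a peak, coloured by its log2 ratio of ChIP over input (narrow peaks are widened slightly so that they show). AGO2 is filled over 50.6 kb by a single peak, XPO5 by several wide ones, and AGO4 has 1 peak.

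**Figure D2:**
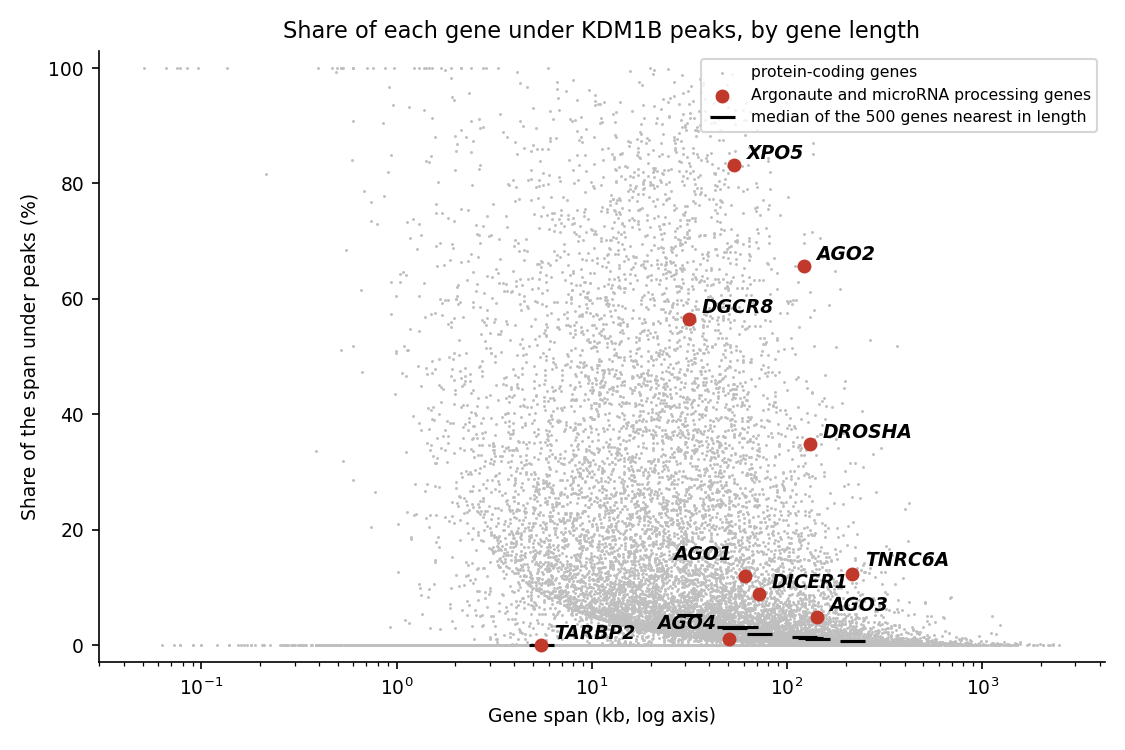
Share of the gene span under peaks (%) against gene span (kb, log axis) for all protein-coding genes (grey) and the 10 genes (red); black bars give the median of the 500 genes nearest in length. XPO5 (83.2%), AGO2 (65.7%) and DGCR8 (56.4%) stand far above their bars, while AGO4 (1.05%) lies below its bar and TARBP2 (0%) on it.

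AGO2 (chr8:140520156-140642313, hg38, 122 kb) carried 28 peaks, which covered 80.2 kb or 65.7% of its span. A single peak of 50.6 kb (chr8:140524733-140575297, log2 ratio 3.53) made up 63.0% of the covered bases and 41.4% of the gene. It was the fourth widest of 78536 peaks. Ahead of it stood the peaks over FANCA and ZNF276 (90.2 kb), the dynein heavy chain gene DYNC1H1 (69.7 kb) and GCN1 (60.1 kb). Among those behind it were the peaks over SPG7 (46.9 kb), the DNA methyltransferase gene DNMT1 (40.6 kb) and TOP3A (38.1 kb). The log2 ratios of these peaks, that of AGO2 included, lay between 3.49 and 3.90. On chromosome 8 the next widest of 2253 peaks spanned 20582 bp.

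The other 27 peaks of AGO2 were far smaller, from 563 to 3818 bp, with log2 ratios from 1.76 to 4.46. At higher coordinates, 3 peaks of 2020, 3818 and 3635 bp followed the wide one (3.24, 2.82 and 2.58). Joining peaks less than 1 kb apart gave a region of 64.0 kb from 6 peaks, chr8:140523659-140587636. Joined regions elsewhere grew more, so this region ranked 15 of 53248. With the gene divided into 10 equal parts from the lower-coordinate end, parts 2 to 4 were covered throughout, part 5 to 94.1%, and part 10 to 22.8%. The highest ratio, 4.46, belonged to a peak of 685 bp (chr8:140607167-140607852) outside the wide region. Beyond the lower end, 3 peaks (2.27, 2.32 and 2.57) also lay in or within 5 kb of the neighbour CHRAC1, a subunit of a chromatin accessibility complex. Another 6 peaks were in or near the overlapping predicted gene LOC107986982 and 3 in or near the lncRNA gene ERICD. Outside the 16342 bp shared with LOC107986982, 71.1% of AGO2 was covered.

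Among the 500 genes nearest to AGO2 in length (113 to 132 kb), 497 had a smaller share covered (99.4%, exact binomial 95% interval 98.3 to 99.9%, counting error only), and their median was 1.46%. The 3 with a larger share were the centrosomal gene PCNT (71.3%), the nuclear pore gene NUP98 (69.7%) and PPFIA1 (65.8%). PPFIA1, GON4L (62.8%), NUP98, EP400 (61.2%) and PCNT were nearest to AGO2 in share covered. Their coverage was built from 37 to 47 peaks each, of which the widest spanned 5.78 to 13.1 kb. None of the 500 genes touched a peak as wide as that of AGO2, the widest being 18.5 kb at PRRC2B. Without peaks of 20 kb or wider AGO2 stood above 92.4% of them. The 100 kb on each side of AGO2 were covered to 24.9%, and the 500 kb on each side to 8.60%. At AGO1, AGO3, AGO4 and TARBP2 the 500 kb on each side were instead covered more than the gene. There they were covered to 18.6, 18.5, 17.4 and 13.0%, against 11.9, 4.82, 1.05 and 0% of the gene. In the remaining genes they were covered less than the gene.

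**Figure D3:**
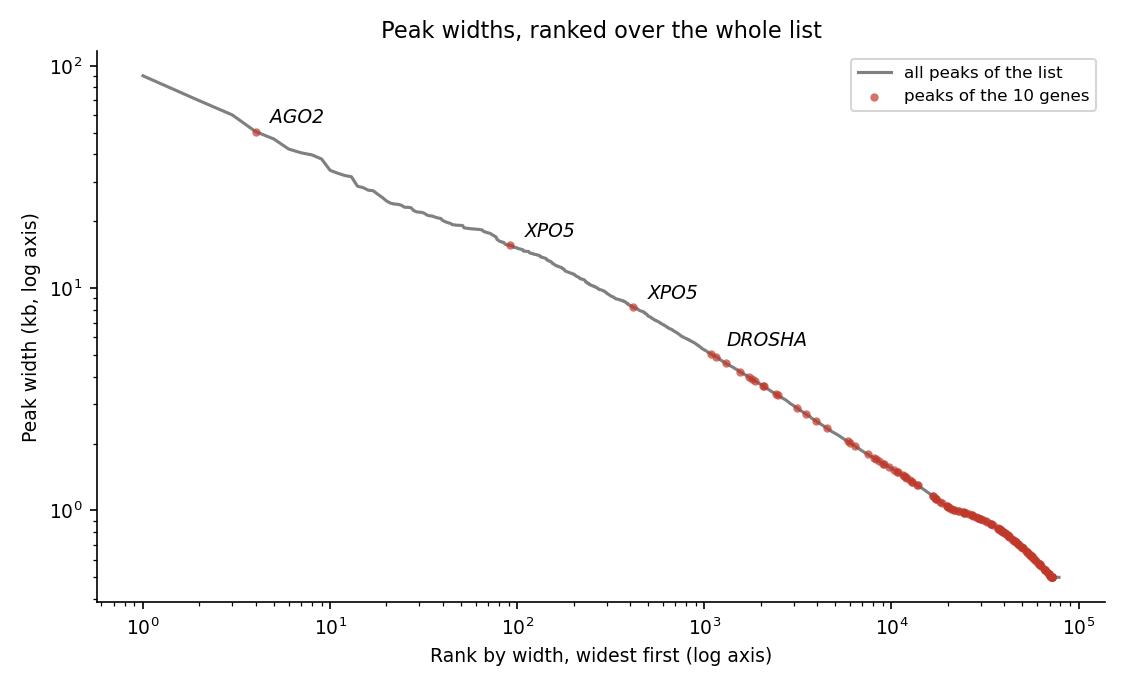
Width of every peak in kb (log axis) against its rank, widest first (log axis), for the whole list (grey line) and for the peaks of the 10 genes (red points). AGO2 holds rank 4 at 50.6 kb, followed at some distance by peaks of XPO5 (15.6 and 8.19 kb) and DROSHA (5.04 kb).

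AGO4, AGO1 and AGO3 lie side by side on chromosome 1, in that order, and differed from AGO2 by having only short peaks. The widest peak in any of them spanned 1043 bp. AGO4 (chr1:35807636-35857890, 50.3 kb) had 1 peak, chr1:35855672-35856200 with a log2 ratio of 3.35, which left the first 48.0 kb of the gene without any. Its covered share of 1.05% was above that of 31.2% of its genes of like length, whose median was 3.20%. No peak midpoint fell in the 11.9 kb between AGO4 and AGO1.

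AGO1 (chr1:35869761-35930532, 60.8 kb) had 11 peaks, 9 of them inside the gene, which covered 11.9%, above 70.6% of the genes of like length (median 3.21%). Its strongest peak, chr1:35881860-35882360 (3.78), ended 599 bp before the window around the listed start site, which is inside the RefSeq gene span because the span begins further upstream. Downstream of that site, peaks at 35888214 and 35891978 had ratios of 3.21 and 3.44. Between 35902621 and 35918602, 6 peaks followed with lower ratios, 2.26, 2.38, 2.36, 2.51, 1.90 and 2.79. Inside AGO1 the ratios thus separated by position, with the 3 peaks nearest the start site above 3 and the 6 later ones below.

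AGO3 (chr1:35930718-36072500, 142 kb) begins 185 bp after the end of AGO1 and also had 11 peaks. A peak of 829 bp, chr1:35930460-35931289, spanned the end of AGO1 and the start of AGO3, with the lowest ratio of the AGO3 peaks, 2.08. A second peak near both genes, chr1:35935189-35935692, had a ratio of 3.40 and a midpoint 4908.5 bp beyond AGO1, just inside the 5 kb limit. The next 72.7 kb of AGO3, 51.3% of the gene, held no peak. The other 9 peaks fell within 43.4 kb (chr1:36008437-36051845). Of these, 4 were in or within 5 kb of the lncRNA gene LOC105378647 and had ratios of 2.40, 3.21, 2.70 and 2.40. Beyond it the ratios were 3.76, 3.93, 4.68, 2.37 and 4.62, so the highest values of AGO3 came late in the gene. Peaks covered 4.82% of AGO3, above 75.8% of its genes of like length (median 1.00%).

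The peak at the start of AGO3 covered the whole RefSeq promoter window, which runs from 250 bases before the start site to 50 after it. The 250 bases before the start are printed because they lie entirely under this peak (RefSeq, GRCh38.p14, chr1:35930855-35931104, plus strand, 5′ to 3′). Capitals mark each CG dinucleotide, 41 in all.
AGO3: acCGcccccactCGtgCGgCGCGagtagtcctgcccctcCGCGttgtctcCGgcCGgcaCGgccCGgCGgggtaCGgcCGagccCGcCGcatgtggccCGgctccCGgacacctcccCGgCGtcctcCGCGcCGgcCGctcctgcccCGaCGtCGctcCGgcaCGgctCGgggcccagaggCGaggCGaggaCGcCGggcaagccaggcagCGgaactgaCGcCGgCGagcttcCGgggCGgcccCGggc

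DROSHA and DGCR8, the partners of the Microprocessor, both had dense peaks along the gene. DROSHA (chr5:31400494-31532093, 132 kb, minus strand) had 35 peaks, the most of the 10 genes. They covered 34.8%, above 95.8% of genes of like length (median 1.29%). Coverage was uneven along the gene, from 4.70 to 84.1% of 10 equal parts, with 38.9% of the one at the start site. Of 3 equal parts counted from the start site, the first was covered to 62.4%, the next to 25.1% and the last to 16.8%. Joined within 1 kb, 10 peaks in the first part formed a region of 24.96 kb (chr5:31493318-31518280), which held the widest DROSHA peak of 5042 bp (2.55) and others of 3974 bp (3.37) and 3895 bp (3.03). Another peak of 3615 bp (3.13) lay closer to the start site. The ratios stayed in a narrow range, from 1.97 to 3.64. The start site itself was not covered: the nearest peak, chr5:31532959-31533533 (2.34), began 617 bp upstream of the promoter window, in or within 5 kb of the neighbour C5orf22. Around the gene peaks were rare, with 1.40% of the 500 kb on each side covered.

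DGCR8 (chr22:20080241-20111872, 31.6 kb, plus strand) had 18 peaks, more than 498 of its 500 genes of like length. They covered 56.4%, above 91.4% of them (median 5.14%). Here the middle was fullest, with 79.3% of the middle of 3 equal parts covered, against 33.4% of the first and 56.6% of the last. The highest ratios were 4.46 (chr22:20090808-20091967), 4.28 (chr22:20092868-20095391, at 2523 bp its widest peak) and 4.25 (chr22:20109837-20110766). The other 15 lay between 2.24 and 3.84. Its last peaks, from 20107073 on, were also in or within 5 kb of the neighbour TRMT2A, and 2 of those 5 of RANBP1.

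The DGCR8 transcript carries microRNA hairpins of its own, which the Microprocessor is known to cut from this mRNA. The sequences of MIR3618 and MIR1306, and of MIR6816 just beyond the end of DGCR8, are shown because they lie wholly under peaks. The MIR3618 hairpin (chr22:20085746-20085833) and the mature products of MIR1306 fell in the same peak, chr22:20085305-20086462, with a ratio of 3.15. MIR6816 fell in chr22:20114323-20115107 with 2.91. Of all microRNA hairpins of the RefSeq table, 16.2% were touched by a peak. Mature sequences are from RefSeq, GRCh38.p14, 5′ to 3′, with the seed, bases 2 to 8, in capitals. The 5 seeds are all different.
hsa-miR-3618: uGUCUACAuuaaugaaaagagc
hsa-miR-1306-5p: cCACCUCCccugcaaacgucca
hsa-miR-1306-3p: aCGUUGGCucugguggug
hsa-miR-6816-5p: uGGGGCGGggcaggucccugc
hsa-miR-6816-3p: gAAGGACCugcaccuucg

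XPO5 (chr6:43522334-43576038, 53.7 kb, minus strand) was the most fully covered of the 10 genes, with 17 peaks over 44.7 kb or 83.2% of its span. Of its 500 genes of like length, 496 had a smaller share (99.2%, interval 98.0 to 99.8%), with a median of 3.03%. The widest peaks were 15.6 kb (chr6:43557732-43573290, 3.33), 8.19 kb (chr6:43532015-43540201, 3.21), 4.58 kb (3.22) and 4.19 kb (2.95). The 17 ratios had the narrowest range among genes with more than 2 peaks, from 2.52 to 3.50. Its longest stretch without a peak was 3.14 kb. POLR1C, a subunit gene of RNA polymerases I and III, overlaps XPO5 over 40.1 kb or 74.6% of its span, so peaks there belong to both genes and cannot be told apart. All 17 peaks of XPO5 were in or within 5 kb of another gene. The peak just past its end, chr6:43520773-43521502 (2.61), was near YIPF3 as well as POLR1C. The 13.6 kb of XPO5 outside other protein-coding genes were covered to 96.5%, and the shared part to 78.7%. The start site lay in a small gap: a peak of 1408 bp (3.00) ended 44 bp short of the promoter window and another of 519 bp (2.52) began beyond it, both in or within 5 kb of the neighbour POLH. The 250 bases before the start site are printed as the uncovered counterpart to the AGO3 sequence (RefSeq, GRCh38.p14, chr6:43576039-43576288, minus strand, 5′ to 3′), with the 34 CG dinucleotides in capitals.
XPO5: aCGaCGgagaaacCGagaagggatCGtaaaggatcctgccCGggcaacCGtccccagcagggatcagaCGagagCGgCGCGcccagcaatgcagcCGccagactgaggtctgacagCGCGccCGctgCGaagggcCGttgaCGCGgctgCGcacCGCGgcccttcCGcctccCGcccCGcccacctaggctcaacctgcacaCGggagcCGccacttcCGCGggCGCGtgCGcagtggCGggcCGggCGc

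DICER1 and TARBP2, which act together in the cytoplasm, had 6 and 2 peaks. DICER1 (chr14:95086228-95158010, 71.8 kb, minus strand) had more peaks than 338 of its 500 genes of like length and fewer than 142. They covered 8.81% of the gene, above 75.2% of genes of like length (median 1.97%). Its widest, chr14:95156127-95158076 (1949 bp), lay over the start of the gene, in or within 5 kb of the lncRNA gene DICER1-AS1, and had its lowest ratio, 2.28. Of the 5 DICER1 windows in the promoter table, chr14:95157480-95157779 lay entirely under this peak, 2 in part (74.7 and 38.7%) and 2 not at all. No peak followed for 37.7 kb, a stretch that holds MIR3173, whose hairpin was under none. In the later part the peaks had ratios of 4.21 (chr14:95117947-95118447), 2.66, 3.65 (chr14:95102311-95103881), 2.93 and 2.82, in the direction of transcription. Outside the gene the nearest midpoint was 180376 bp away, and 0.612% of the 500 kb on each side was covered.

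TARBP2 (chr12:53500923-53506431, 5.51 kb, plus strand) had no peak inside the gene. A peak with a ratio of 2.44 (chr12:53499413-53500090) lay before its start, in or within 5 kb of MAP3K12. Another with 4.28 (chr12:53506621-53507268) lay just past its end, in or within 5 kb of NPFF, ATF7 and ATF7-NPFF. Of its 500 genes of like length, 268 also had none of their span under a peak. By number of peaks, 297 of them had fewer than TARBP2 and 151 had more. With 5 kb added on each side of every gene, TARBP2 stood above 60.2% of them.

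TNRC6A (chr16:24610205-24826218, 216 kb, plus strand) was the longest of the genes and had its peaks at the far end. Of its 22 peaks, 19 fell within 45.4 kb (chr16:24784099-24829527), at the end of the gene and just beyond it. Of 3 equal parts, the first was not covered, the next to 2.74% and the last to 34.3%, with 12.3% in all. That share was above 94.0% of genes of like length, whose median was 0.652%. The widest peak was 4921 bp (chr16:24812493-24817414, 3.39). Upstream of this cluster stood 3 single peaks: chr16:24707600-24708307 and chr16:24748834-24749334 had the highest ratios of all 10 genes, 5.72 and 5.49, and the third, chr16:24729186-24729949, had the lowest of TNRC6A, 1.83. This last peak covered the whole promoter window of the start site given in the RefSeq promoter table, which lies far inside the gene span. Counted from that start site, 26.4% of TNRC6A was covered. The 250 bases before it are printed as another promoter entirely under a peak, beside those of AGO3 and DICER1 (RefSeq, GRCh38.p14, chr16:24729401-24729650, plus strand, 5′ to 3′), with the 21 CG dinucleotides in capitals.
TNRC6A: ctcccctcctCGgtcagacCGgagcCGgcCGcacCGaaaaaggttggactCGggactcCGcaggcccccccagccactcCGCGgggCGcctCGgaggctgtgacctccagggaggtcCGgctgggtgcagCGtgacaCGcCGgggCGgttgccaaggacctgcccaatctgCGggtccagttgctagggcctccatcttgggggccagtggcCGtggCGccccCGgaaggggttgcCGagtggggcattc

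Across the 9 genes with an entry in the promoter table, all but AGO2, a peak touched a promoter window in 3, namely AGO3, DICER1 and TNRC6A, against 34.4% of the 15812 protein-coding genes with an entry. In each of the 3 the peak at the start site had the lowest log2 ratio of the gene (2.08, 2.28 and 1.83). Over the genome the peaks at promoter windows also had lower ratios than the list as a whole, with a median of 2.58 (quartiles 2.30 and 2.95) against 2.99. The dinucleotide CG, which reads the same on both strands, occurs in 98.1% of the 22132 windows of 300 bases, with a median of 21 per window. The median was 29 in the 6736 windows touched by a peak and 15 in the 15396 others. DGCR8 had 57, AGO3 50, XPO5 41, TNRC6A 31, AGO1 30, AGO4 29 and DROSHA 28. DICER1, with 5 windows, ranged from 0 to 37, and TARBP2, with 3, from 19 to 31. DGCR8, with the most CG, had its nearest peak 1250 bp from the window.

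Over the 149 peaks the median log2 ratio was 2.87 (quartiles 2.55 and 3.26), against 2.99 (2.58 and 3.52) in the whole list. From the most to the least covered gene, the median ratio was 2.87 at XPO5, 2.59 at AGO2, 3.17 at DGCR8, 2.76 at DROSHA, 3.12 at TNRC6A, 2.51 at AGO1, 2.88 at DICER1, 3.21 at AGO3, 3.35 at AGO4 (1 peak) and 3.36 at TARBP2 (2 peaks). The 3 least covered genes thus had the highest medians. Those of AGO4 and TARBP2 rest on 1 and 2 peaks, and both TARBP2 peaks lay outside the gene. The median of AGO3 (3.21) was close to that of DGCR8 (3.17). A ratio of 4 or more was found in 11 peaks (7.38%), against 12.7% of all peaks. They were spread over AGO2 (1), AGO3 (2), DGCR8 (3), DICER1 (1), TARBP2 (1) and TNRC6A (3), and AGO1, AGO4, DROSHA and XPO5 had none. A common step of 2.64 was chosen so that nearly all of the highest linear ratios in the list are whole multiples of it. Of all peaks, 12.4% stand at whole multiples of this step. Among the 149 peaks 9 did, including the 2 strongest of TNRC6A (5.72 and 5.49) and the strongest of DICER1 (4.21). The counts behind these values are unknown, and their part in the high ratios was not tested. Peaks of 5 kb or wider numbered 4 (2.68%) against 1.42% of all peaks, at AGO2, XPO5 and DROSHA.

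**Figure D4:**
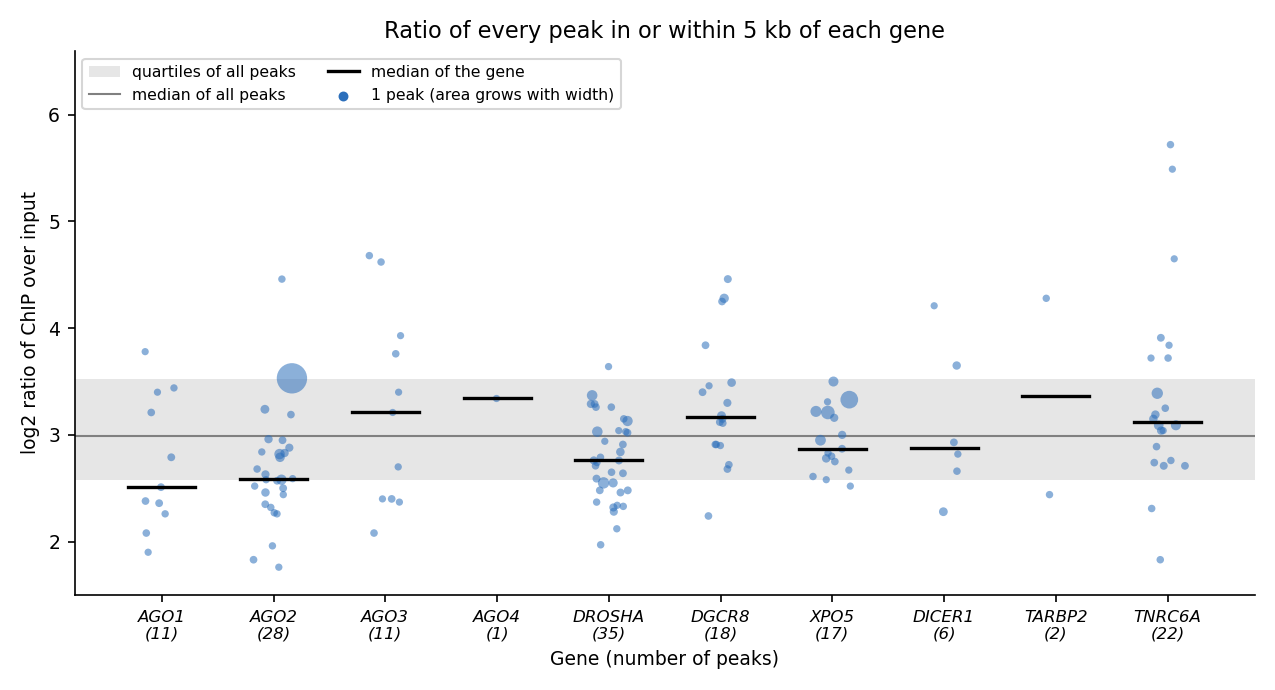
Log2 ratio of ChIP over input of every peak in or within 5 kb of each gene (points, area growing with peak width; black bars, median of the gene), with the median (2.99) and quartiles (2.58 and 3.52) of all peaks in grey. The wide AGO2 peak stands at 3.53, above all but 1 of the other AGO2 peaks, and the highest points are those of TNRC6A at 5.72 and 5.49.

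Other genes of the pathway were followed in a list of 68, chosen by function in 6 groups. Of these 62 had a peak in the gene or within 5 kb (91.2%, against 67.5% of all protein-coding genes), and 46 had a peak within 1 kb of a gene end (67.6%, against 41.9%). The share covered had a median of 13.8%, against 1.52% over all protein-coding genes. In 54 of 68 it was above the median of their genes of like length, against 46.4% of all protein-coding genes, and in 12 of 68 it was 50% or more, against 7.28%. The 15 cofactors of the Microprocessor and of DICER1 all had peaks and all lay above that median, led by the nuclear matrix proteins SAFB2 (98.1% covered) and SAFB (75.9%). KHSRP, SRRT, HNRNPA1 and the helicase gene DDX17 of this group, named here after their values were seen, had 60.3, 55.7, 52.5 and 50.4%.

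The germline PIWI branch of the Argonaute family had few peaks. PIWIL1, PIWIL3 and PIWIL4 had no peak, so 1 of 4 had a peak. All 4 of the AGO branch did, and 67.5% of all protein-coding genes. PIWIL2 had 3 peaks, which covered 2.39%, above 49.4% of its genes of like length (median 2.42%). A difference between the branches was not tested. The GW182 paralogs of TNRC6A both had peaks, which covered 3.02% of TNRC6C and 2.59% of TNRC6B. Both genes are long. These shares stood above 69.4% and 85.8% of their genes of like length (medians 1.04 and 0.381%). Among 13 partners of the silencing complex 12 had a peak (92.3%, against 67.5% of all protein-coding genes). GEMIN4 (72.0%) and FXR2 (67.2%), a relative of the fragile X protein, were covered most. FMR1 itself had no peak.

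Of 27 genes of deadenylation and decapping, through which the target mRNA is silenced and degraded, 26 had a peak. That was 96.3%, against 67.5% of all protein-coding genes, and the median share covered was 14.5%. The RNA helicase gene DDX6 (73.5%) led, followed by CNOT1 (65.8%), the scaffold of the deadenylase complex, where all 500 genes of like length had a smaller share. BTG2 had no peak. Among the CNOT genes of the list the range was wide, down to 0.468% at CNOT6L and 0.622% at CNOT4, both named after their values were seen. For their length these 2 were less extreme, above 29% and 38.6% of their genes of like length (medians 1.43 and 1.11%). In the group around LIN28 and the terminal uridylation of let-7 precursors, 6 of 7 had a peak (85.7%, against 67.5% of all protein-coding genes). TUT7 (17.3%) and the ribonuclease gene PARN (8.16%) were covered most, and LIN28B had no peak.

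**Figure D5:**
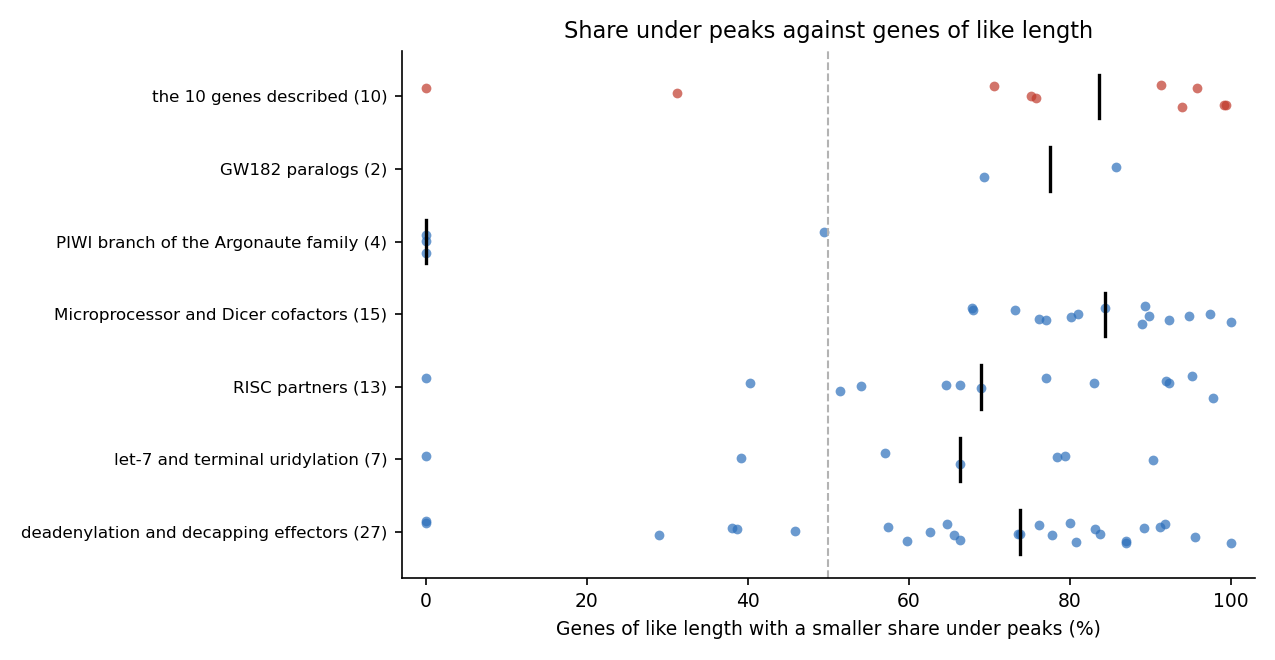
For each gene, the percentage of the 500 protein-coding genes nearest in length that have a smaller share of their span under peaks, by group (number of genes in parentheses; black bars, median of the group; dashed line at 50%). The 10 genes described have a median of 83.6%, against 45% over all protein-coding genes. They range from 0% at TARBP2 to 99.4% at AGO2, and 3 of the 4 PIWI genes stand at 0%. Any gene with no covered bases stands at 0%, because ties do not count as smaller.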

How the data were processed

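Chromatin of MDA-MB-231 cells was crosslinked and sonicated, and DNA bound by tagged KDM1B was recovered with anti-FLAG antibodies, per the labels' protocols. Trim Galore 0.4.5, Bowtie2 2.2.9 and the build hg38 are named in the submitters' processing notes. No source used here names the peak caller or its settings. The deposited list holds a log2 ratio of ChIP over input per peak, made by the authors from 1 library each. That these are log2 values was read from the values themselves. Coordinates are printed as deposited, and no source used here says if a start is 0-based or 1-based.

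Gene spans, promoter windows and microRNA sequences came from RefSeq tables of GRCh38.p14, without exons. A peak was assigned to each gene that held its midpoint within the span or 5 kb of it. The covered share is the part of the span under peaks. Like length means the 500 protein-coding genes nearest in log length, and intervals of their shares are exact binomial. A whole multiple of the step had a tolerance of 1e-05. The members and gene lists were chosen with earlier results of these data known. All 10 members, neighbours sharing their peaks, peaks next to that of AGO2 in width, the 5 genes most like it in share covered, up to 2 genes per wider group with the highest share and genes without a peak were named by rule, and other genes were chosen after their values were seen. Some peaks next to that of AGO2 in width are not reported here. Functions were checked on simulated data. Python 3.11.15, numpy 2.4.6, pandas 2.3.3 and scipy 1.17.1 were used.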

Additional observations from a re-analysis of the deposited data

How the results depend on the processing

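Of 35 recomputed counts 30 stayed within 1.5 times their value. Some of the 30 could not move: members with a peak were already 10 of 10, which a 10 kb limit or any overlap cannot change. Members with a gene-end peak fell from 7 to 3 with only the stronger part of the list (log2 ratio at or above the median), to 4 with peaks joined within 1 kb and to 2 within 500 bp of the ends, and rose to 10 within 5 kb. The rise from 7 to 10 is among the 30 that stayed within 1.5 times. A narrower or wider distance lowers or raises this gene-end count by construction, and joining moves the midpoints. The members' peaks fell from 149 to 63 with the stronger part and to 72 with joining, where fewer or merged peaks are counted by construction. Members with a peak numbered 9 or 10 in all alternatives, members above the like-length median 8 or 9, and wider genes with a peak 56 to 64. The shares of all protein-coding genes were not recomputed beside these counts. Whether the listed genes moved more or less than the rest is therefore unknown. Of 72 recomputed percentiles among genes of like length 64 stayed within the counting interval. The others included TARBP2, at 60.2% instead of 0% when 5 kb on each side were added, and AGO4, at 43.8% with the stronger part. Counting AGO1 and TNRC6A from the listed start site was chosen after the data were seen. No paired analysis was possible because each group held 1 library. Without read counts, depth limits every ratio to an unknown degree.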
